A study of Homo sapiens with 16 samples.

Results

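Peaks of accessible chromatin were examined at 7 genes that deal with alkylated DNA and replication errors: MGMT, MSH3, MSH6, MLH3, PMS2, MPG and ALKBH2. The genes were chosen by name and no value entered the rule, but earlier results of these data were known at the time. A peak belonged to a gene when it overlapped the gene's hg38 span extended by 10 kb on each side. Merging the peaks of the 4 deposited lists wherever they overlapped by at least 1 bp gave 47 regions at these genes, of 183659 on chromosomes 1 to 22 and X. The 7 genes are of 19974 protein-coding genes in the gene table used, and MGMT had 0 regions, MSH3 17, MSH6 1, MLH3 13, PMS2 3, MPG 9 and ALKBH2 4.

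The cells were U87, an established human glioblastoma line, and the assay was NicE-seq, in which the enzyme Nt.CviPII nicks exposed DNA and a polymerase adds biotin there for capture and sequencing. The 16 libraries form 4 groups of 4. Control_DMSO received vehicle, and Control_Bel received belinostat, an inhibitor of histone deacetylases, at 1 µM for 24 h. Asi_DMSO carried AsiDNA, a short DNA duplex made to resemble a broken end, with vehicle, and Asi_Bel carried AsiDNA together with the same belinostat exposure. These groups are called vehicle, belinostat, AsiDNA and combination here. The labels give no dose or duration for AsiDNA, and the protocols name cells MTU87 and LTAU87, so the exposure to AsiDNA remains unresolved. The purpose stated for the series was to see how accessibility follows exposure to either drug or both.

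Each group has 1 peak list for its 4 libraries, so a difference between lists has no replicate check, no test was possible, and every value is a description. Percentages carry Wilson 95% intervals, which cover counting error only and treat neighbouring regions as independent. The strength of a peak is the authors' fold enrichment, expressed as a percentile among the peaks of its own list, where 100 is the strongest. Percentiles from lists of different length, depth and background are ranks and not levels. The lists held from 130318 to 138937 peaks, with median widths of 398 to 410 bp and median fold enrichments of 5.75 to 6.32. Read depth is unknown from these files. Of 8 astroglial and glioma markers, 7 had a peak at a gene end in all lists and GFAP had none. The oligodendrocyte markers MBP and MOG and the epithelial and liver markers ALB and CDH1 had none in any list, and 1 of 4 microglial and blood markers, CD3E, had one in all. Of the neuronal markers SNAP25 and SYT1 had one in all lists and RBFOX3 in none. Over all 19 markers 10 had one in all lists, against 64.1% of protein-coding genes.

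The genes belong to neighbouring lines of defence. MGMT takes the methyl group off alkylated guanine and is used up by doing so; its loss through promoter methylation is the best known marker of response to temozolomide in glioblastoma. MPG is the glycosylase that cuts out methylated purines and starts base excision repair, and ALKBH2 is a dioxygenase that removes methyl groups from the pairing face of bases. In mismatch repair MSH6 and MSH3 are alternative partners in the sensors of mispaired bases and small loops, and PMS2 and MLH3 are alternative partners in the MutL complexes that act next. Mismatch repair also turns unrepaired alkylated guanine into lethal damage, which ties it to MGMT.

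The sequence before each start was read first, since CG-rich promoters are usually open and the enzyme nicks at CCA, CCG and CCT. The 250 bases before the start of 4 genes are printed 5′ to 3′ in the direction of transcription, from the RefSeq promoter table of GRCh38.p14, with each CG in capitals. MGMT is shown because no list had a peak there, PMS2 and MSH3 because they had the highest and the lowest ranks when each start with a peak was taken at its strongest peak, and MLH3 because it had the fewest CG. They lie at chr10:129466991-129467240 on the plus strand (MGMT), chr5:80654402-80654651 on the plus strand (MSH3), chr7:6009107-6009356 on the minus strand (PMS2) and chr14:75051468-75051717 on the minus strand (MLH3).
MGMT: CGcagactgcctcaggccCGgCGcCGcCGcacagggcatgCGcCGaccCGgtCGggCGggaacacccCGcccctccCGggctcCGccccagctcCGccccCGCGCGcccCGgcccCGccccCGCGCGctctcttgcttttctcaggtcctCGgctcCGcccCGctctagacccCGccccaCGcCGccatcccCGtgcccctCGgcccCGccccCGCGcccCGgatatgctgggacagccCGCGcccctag
MSH3: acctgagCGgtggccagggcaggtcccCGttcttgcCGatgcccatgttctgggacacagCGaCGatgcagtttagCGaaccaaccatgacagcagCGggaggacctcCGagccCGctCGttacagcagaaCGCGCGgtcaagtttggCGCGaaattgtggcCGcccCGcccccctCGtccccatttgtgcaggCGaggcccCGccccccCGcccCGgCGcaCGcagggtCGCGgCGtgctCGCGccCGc
PMS2: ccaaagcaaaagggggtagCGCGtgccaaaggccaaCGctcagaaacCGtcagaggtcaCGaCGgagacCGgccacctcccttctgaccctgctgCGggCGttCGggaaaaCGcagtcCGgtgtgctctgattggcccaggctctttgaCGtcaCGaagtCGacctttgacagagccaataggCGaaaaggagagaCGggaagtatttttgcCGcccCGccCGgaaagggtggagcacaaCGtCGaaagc
MLH3: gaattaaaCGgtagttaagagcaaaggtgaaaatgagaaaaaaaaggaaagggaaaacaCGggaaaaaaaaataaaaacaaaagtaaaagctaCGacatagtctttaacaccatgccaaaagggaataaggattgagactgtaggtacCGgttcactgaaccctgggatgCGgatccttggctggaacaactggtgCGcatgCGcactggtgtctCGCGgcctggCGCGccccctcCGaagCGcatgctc
The printed stretch held 36 CG in MGMT, 30 in MSH3, 22 in PMS2 and 13 in MLH3. With the 50 bases after the start, the 300-base promoters held 45, 37, 24 and 22, and those of MSH6, MPG and ALKBH2 held 39, 34 and 24. The median of 15812 promoters, 1 per protein-coding gene in the table, was 22. CG was found in 98.1% of those promoters, and CCA, CCG or CCT, counted on both strands, in 100%. A CCG on either strand contains a CG, so the motifs overlap. The MGMT promoter had 49 such nicking triplets, against a median of 43.

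MGMT was the one gene of the 7 without a peak. Its span, chr10:129467241-129770983 on the plus strand, covers 304 kb, and neither this span nor the 10 kb on either side held a peak in the vehicle, belinostat, AsiDNA or combination list. Of 486 other protein-coding genes within 20% of its length, the median had 21 regions and 13, or 2.67%, had none. Over all protein-coding genes, most of them shorter, 7.01% had none. By a rule that ranked genes of similar length on how little their peak counts in the 4 lists differed from those of MGMT, the most similar were NXPH1, PREX2, SHISA6, HTR2C and DCAF8L2, all at 0. All 13 genes tie at 0, and these 5 are the nearest in length, an order chosen after their counts were seen.

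The peak-free stretch around MGMT ran for 1.21 Mb, at chr10:128751674-129964095. It was 1 of 130 gaps of at least 1 Mb among 183628 between neighbouring regions, whose median was 6.30 kb, and the 4th longest on chromosome 10. It took in the whole of MGMT and of LOC124902531, and part of EBF3, a developmental transcription factor gene. The nearest peak upstream lay 716 kb before the start in all lists, at percentile 38.5 in vehicle, 20.3 in belinostat, 59.7 in AsiDNA and 77.5 in combination. The nearest downstream lay 193 kb past the far end in the vehicle and AsiDNA lists and 213 kb past it in both belinostat lists. The peaks of each list are numbered without a break, also on either side of the gap. The lists hold no reads, copy number or methylation, so whether reads were present at MGMT was not tested.

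**Figure D1:**
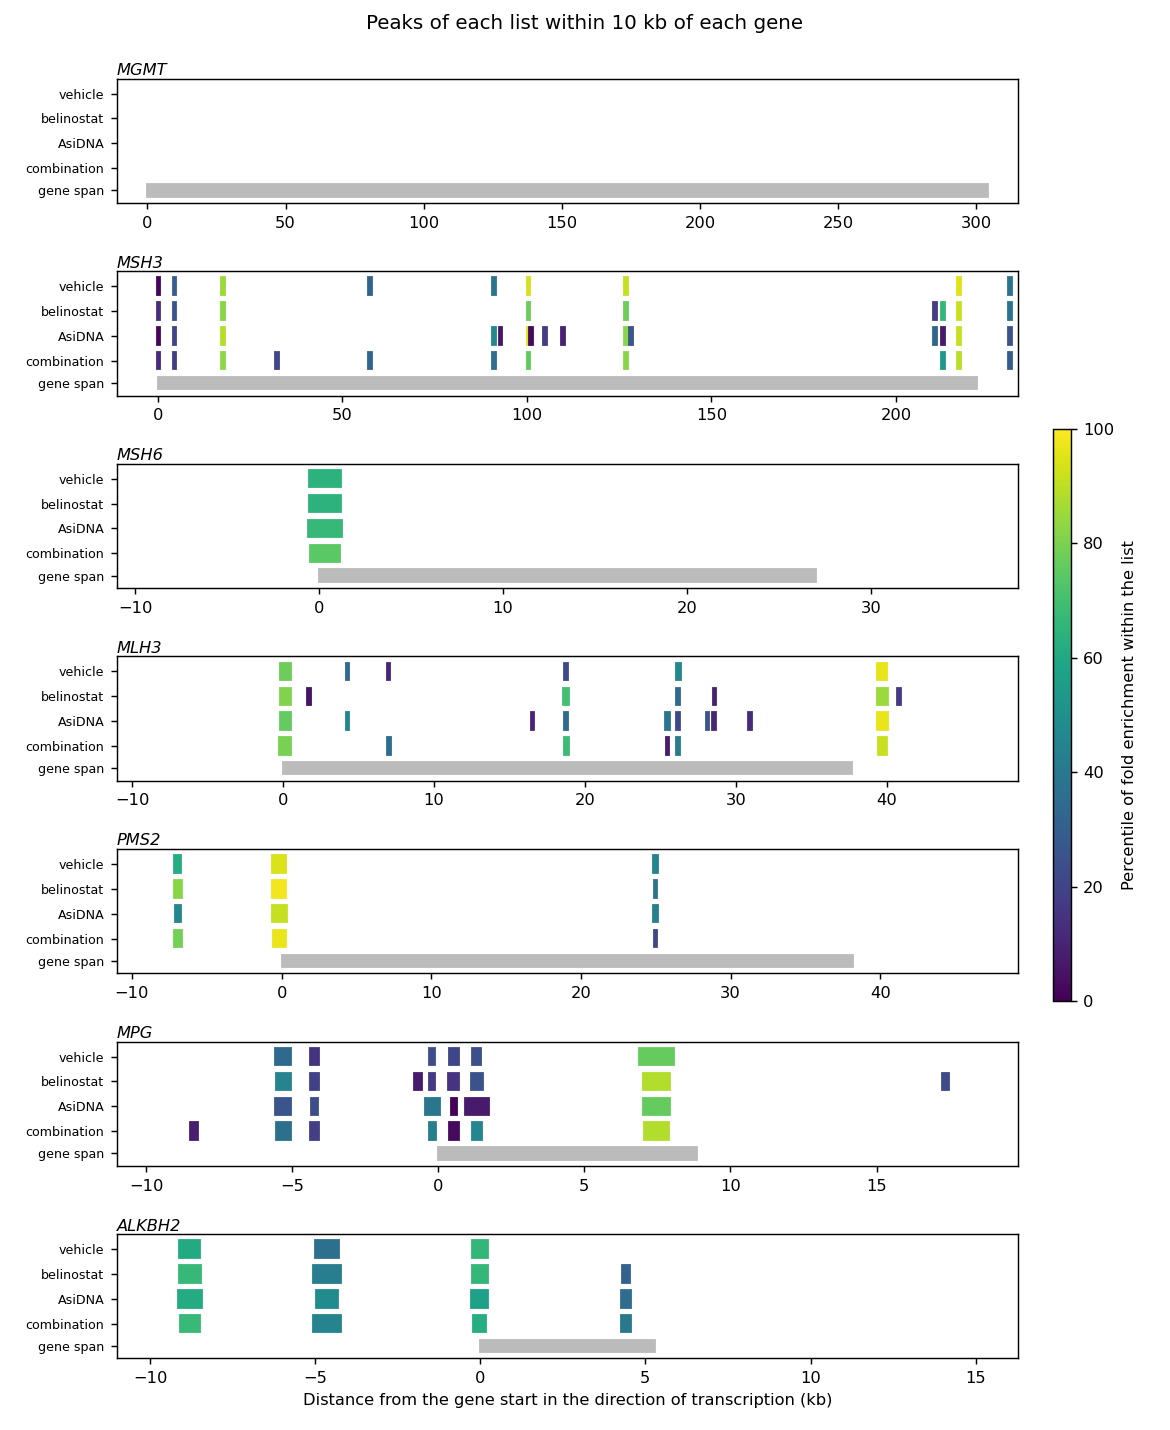
Peaks of the 4 lists within 10 kb of each gene, plotted by distance from the gene start in the direction of transcription (kb), with the gene span in grey and the colour giving the percentile of fold enrichment within the list. A peak is drawn at the middle of its merged region, and a peak too narrow to be seen is drawn wider than it is; the MGMT panel is empty, MSH6 has 1 region and MSH3 has 17.

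Most promoters as rich in CG as that of MGMT had a peak. Promoters with a peak in all lists made up 8.87% (7.84 to 10.0) of those with 0 to 4 CG and 80.6% (78.9 to 82.2) of those with 25 to 29, the highest class. The share was 79.8% (77.8 to 81.6) with 30 to 34 and 77.4% (75.9 to 78.9) with 35 or more. MGMT had more CG than 95.4% of promoters. Of 731 promoters with at least 45 CG, itself included, 513 or 70.2% overlapped a peak in all lists and 161 overlapped none. Of those 161, 15 had no peak within 10 kb of the gene, MGMT among them. The other 6 genes of the set had a promoter peak in all lists, where 57.6% of all promoters had. MLH3, with the fewest CG in the printed bases, had a promoter peak in every list, whereas MGMT, with the most, had one in none.

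**Figure D2:**
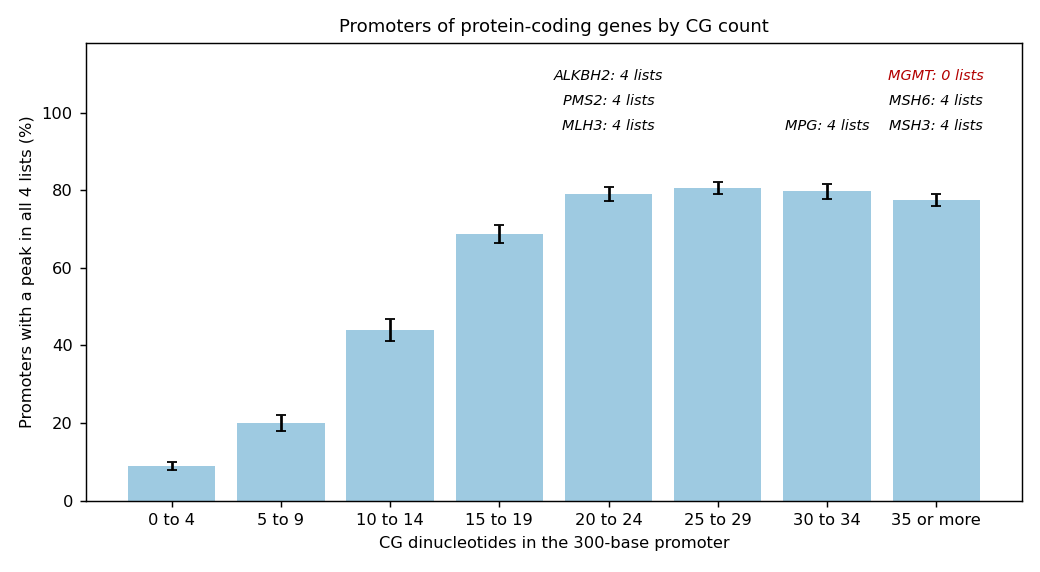
Percentage of protein-coding promoters (y axis) with a peak in all 4 lists, by number of CG in the 300-base promoter (x axis), with Wilson 95% intervals as error bars and each gene of the set written above its class. The share is 8.87% in the class of 0 to 4 CG, highest at 80.6% in that of 25 to 29 and 77.4% in that of 35 or more, where MGMT has 0 lists and MSH3 and MSH6 have 4.

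At the gene starts, 6 of 7 genes had a peak within 1000 bp in all lists and 1, MGMT, in none. Among 15812 protein-coding genes of known strand, 62.5% had a start peak in all lists and 31.3% had none. Most far ends had no peak: 1 of 7, that of MPG, had a peak in all lists and 5 of 7 in none, against 12.6% and 78.6% of genes. The far end of ALKBH2 had a peak in 3 lists and not in vehicle. With either end counted, 6 of 7 genes had a peak in all lists, against 64.1% of 19974 genes. The interval for 6 of 7 starts, 48.7% to 97.4%, takes in the background.

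The start of MSH6, the partner for single mismatches, held the broadest peak. The gene spans chr2:47783145-47810101 on the plus strand, and its only region in 47.0 kb of window was the start, chr2:47782547-47784376. The peak was 1735 bp wide in vehicle, 1775 in belinostat, 1830 in AsiDNA and 1637 in combination, wider than 99.5% to 99.7% of the peaks in the respective lists. Its percentile was 64.3, 64.4, 66.8 and 74.4 in the same order, so combination ranked it highest and the other lists lay within 2.50 points of vehicle. A single region is few for a gene of this length: 5.22% of 2163 genes within 20% of 27.0 kb had fewer, and their median was 4.

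The start of MSH3, the partner for larger loops, had the lowest rank of the 6 starts when each was taken at its strongest peak. The gene spans chr5:80654652-80876815 on the plus strand. The start region lies at chr5:80654496-80655243. Fold enrichment was 2.55 in vehicle, 3.52 in belinostat, 2.65 in AsiDNA and 3.54 in combination, and the percentile was 1.19, 13.6, 1.81 and 11.8. Both lists with belinostat ranked it above both without, by 12.4 points without AsiDNA and 10.0 with it, and all 4 ranked it low. Of all regions held by all lists, 26.4% and 26.1% rose by at least as much. In lists of equal length, cut to the 130318 peaks of vehicle by dropping the lowest folds, the difference between belinostat and vehicle was 6.67 points in place of 12.4. The AsiDNA list then had no peak there, which its low fold fixed in advance. Of 9878 gene starts with a peak in all lists, 0.172% ranked below it in vehicle, 1.81% in belinostat, 0.243% in AsiDNA and 1.55% in combination. The rank by fold and the rank by significance parted here. The −log10 q was 13.6, 40.0, 14.6 and 40.5, at percentile 45.0, 72.2, 45.2 and 70.6 of the lists, and the widths of 645, 705, 727 and 676 bp stood above at least 80.4% of peaks.

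The start of PMS2, the usual endonuclease subunit of MutL, held the highest ranked peak. The gene spans chr7:5970925-6009106 on the minus strand. The start region lies at chr7:6008774-6009764, and the start of AIMP2, a scaffold of the tRNA synthetase complex, lies in it as well. Fold enrichment was 12.3 in vehicle, 17.7 in belinostat, 12.0 in AsiDNA and 16.6 in combination, with percentiles of 94.4, 98.1, 91.4 and 96.7. The −log10 q was 85.1 and 79.3 without belinostat and 205 and 190 with it. The width differed the other way, 970 and 985 bp without and 934 and 858 bp with belinostat. As at MSH3, the lists with belinostat stood above those without, and AsiDNA differed from vehicle by -3.01 points. Of all regions held by all lists, 45.5% rose with belinostat by at least as much without AsiDNA and 36.7% with it.

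The start of MLH3, the MutL subunit best known from meiotic recombination, lies at chr14:75050895-75051726 in a gene that spans chr14:75013775-75051467 on the minus strand. Its percentile was 77.7 in vehicle, 80.9 in belinostat, 76.0 in AsiDNA and 79.3 in combination, and its width 734, 714, 740 and 808 bp. Belinostat added 3.22 points without AsiDNA and 3.24 with it, less than the 6.22 and 4.92 points by which the median gene start differed.

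The start of ALKBH2, a gene of chr12:109088189-109093472 on the minus strand, lies in chr12:109093222-109093757. It ranked at 65.9 in vehicle, 66.6 in belinostat, 56.7 in AsiDNA and 61.9 in combination. Its widths were 476, 477, 507 and 403 bp. Both AsiDNA lists ranked it below both lists without AsiDNA, with differences of -9.19 points without belinostat and -4.72 with it. Of all regions held by all lists, 15.2% and 28.9% fell by at least as much.

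The start of MPG was made of several narrow, weak regions in place of a single broad one. The gene spans chr16:77007-85846 on the plus strand. The regions held by all lists lie at chr16:76548-77059, chr16:77347-77725 and chr16:77921-78736, and the start used by the promoter table falls in the last. The strongest start peak ranked at 24.0 in vehicle, 25.0 in belinostat, 39.1 in AsiDNA and 45.8 in combination. Both AsiDNA lists were above both lists without AsiDNA, the reverse of ALKBH2. That peak lay in the first region in AsiDNA and in the last in the other lists, so the comparison mixes regions. The first region alone ranked at 23.3 in vehicle, 17.0 in belinostat, 39.1 in AsiDNA and 42.5 in combination. The regions did not share a direction. The middle one ranked lower with AsiDNA, at 0.533 against 20.6 without belinostat and at 2.54 against 15.0 with it. The last was 816 bp wide in AsiDNA and 308 to 411 bp in the other lists. It ranked at 6.69 in AsiDNA and 45.8 in combination. This rise of 39.1 points was the largest between those lists among the regions of the set held by all lists. Belinostat differed from vehicle there by 0.931 points. The first and the middle one also lie within 1000 bp of the start of RHBDF1, an inactive rhomboid protease gene that runs the other way.

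**Figure D3:**
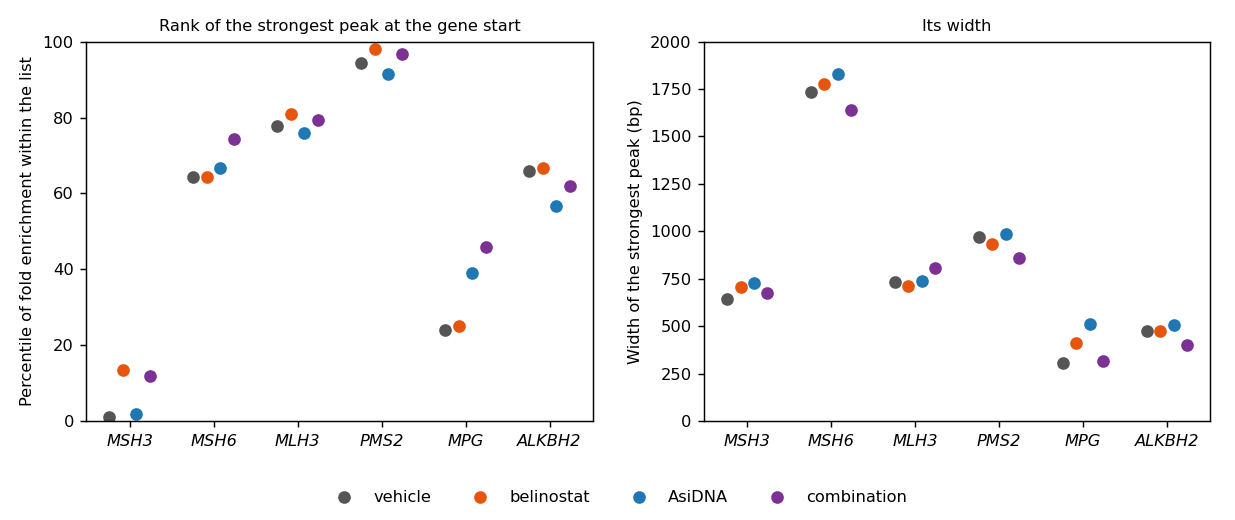
Percentile of fold enrichment within the list (left, y axis) and width in bp (right, y axis) of the strongest peak within 1000 bp of each gene start (x axis), 1 point per list with no error because each group has 1 list. PMS2 lies highest in percentile, 91.4 to 98.1, MSH3 lowest, 1.19 to 13.6, and MSH6 is the widest, 1637 to 1830 bp. MGMT has no peak to plot, and the MPG peak lies in another region in AsiDNA than in the other lists.

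Across the 6 starts the order of percentiles was PMS2, MLH3, then ALKBH2 and MSH6, then MPG and MSH3 in every list. ALKBH2 and MSH6 changed places: ALKBH2 was ahead in vehicle and belinostat, and MSH6 in AsiDNA and combination. With belinostat the strongest start peak ranked higher on both backgrounds, with and without AsiDNA, in 6 of 6 genes, and lower on both in 0. Among the 9878 starts 61.8% ranked higher on both and 13.9% lower, so the direction was that of most open starts. In MSH6, MPG and ALKBH2 the difference from vehicle was 0.145, 0.931 and 0.757 points. With the lists cut to equal length these became -2.21, -4.03 and -1.45, and the count fell to 2 of 6, PMS2 and MLH3. The cut left vehicle whole and dropped the lowest folds of the other lists. Ranks in those lists could therefore not rise, and the weak AsiDNA peak of MSH3 was bound to be lost. With AsiDNA the rank was higher on both backgrounds in 2 of 6, MSH6 and MPG, and lower in 3, MLH3, PMS2 and ALKBH2, against 25.4% and 24.6% of starts. In the counts for either drug, the MPG peak is that of the first start region in AsiDNA and of the last in the other lists.

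The region at the far end of MPG, chr16:83805-85143, also touches the far end of NPRL3, a regulator of mTOR signalling and host of the alpha-globin enhancers. It ranked at 76.2 in vehicle, 88.5 in belinostat, 76.2 in AsiDNA and 88.5 in combination, 12.3 points higher with belinostat on both backgrounds and the same with or without AsiDNA. Rises at least as large were seen in 26.6% of all regions held by all lists without AsiDNA and 21.9% with it. The summed width of the MPG region was 1168 bp in vehicle and 897, 935 and 837 bp in the other lists.

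Inside MSH3, at 217 kb from the start, chr5:80871455-80872099 ranked at 95.0 in vehicle, 91.5 in belinostat, 91.4 in AsiDNA and 89.8 in combination. At 17.5 kb, chr5:80672149-80672589 ranked at 85.0, 82.3, 88.7 and 82.9. At 100 kb, chr5:80754817-80755306 ranked at 93.6, 77.5, 95.4 and 75.6. These internal sites each ranked lower with belinostat on both backgrounds, the last with differences of -16.1 points without AsiDNA and -19.8 with it, while the start of the same gene ranked higher. Falls at least as large as at the 100 kb site were seen in 14.4% and 12.3% of all regions held by all lists. The 100 kb site was not among those the naming rule picked and was chosen after its values were seen. Of the other internal sites in all lists, that at 4.47 kb also ranked lower, with differences of -3.67 and -0.884. That at 127 kb differed by -13.5 and 0.126. A site at 213 kb, absent from vehicle, went the other way, at 66.4 in belinostat, 6.71 in AsiDNA and 53.3 in combination. These too were named after their values were seen.

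The largest difference in rank between belinostat and vehicle was in MLH3. A region inside the gene, chr14:75032496-75032902, 18.6 kb from the start, ranked at 22.6 in vehicle, 70.0 in belinostat, 34.5 in AsiDNA and 68.1 in combination. Its fold enrichment was 4.02, 8.51, 4.77 and 8.54, and its width 233, 407, 289 and 330 bp. Both lists with belinostat stood above both without, in rank, fold and width. Of all regions held by all lists, 1.24% rose in rank by at least as much without AsiDNA and 3.48% with it. For width these shares were 4.86% and 19.8%. Past its far end, within EIF2B2, a translation initiation factor gene, chr14:75011382-75012136 ranked at 96.1, 85.1, 96.8 and 91.7, lower with belinostat on both backgrounds.

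PMS2 had the next largest difference between belinostat and vehicle. The upstream region chr7:6015733-6016343, 6.63 kb before PMS2 and inside AIMP2, ranked at 61.4 in vehicle, 82.1 in belinostat, 46.4 in AsiDNA and 78.8 in combination. Its width was 484, 557, 423 and 553 bp, so the lists with belinostat were both higher and wider. Of all regions held by all lists, 14.5% rose in rank by at least as much without AsiDNA and 3.91% with it. For width these shares were 28.9% and 10.1%. The region inside PMS2, chr7:5983957-5984316, went the other way, at 45.6, 38.0, 43.3 and 21.4, with widths of 337, 214, 360 and 205 bp.

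The remaining named regions lie upstream of the alkylation repair genes. Before ALKBH2, chr12:109097647-109098579 holds the start of UNG, the uracil glycosylase gene, and ranked at 36.5 in vehicle, 42.1 in belinostat, 47.7 in AsiDNA and 45.1 in combination. Further on, inside UNG, chr12:109101899-109102643 ranked at 60.7, 66.8, 61.2 and 67.2. Before MPG, inside RHBDF1, chr16:71373-72021 ranked at 33.9, 45.0, 26.0 and 36.5 and chr16:72602-72939 at 15.5, 18.9, 23.7 and 18.7. The site inside UNG and the first of those inside RHBDF1 ranked higher with belinostat on both backgrounds.

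**Figure D4:**
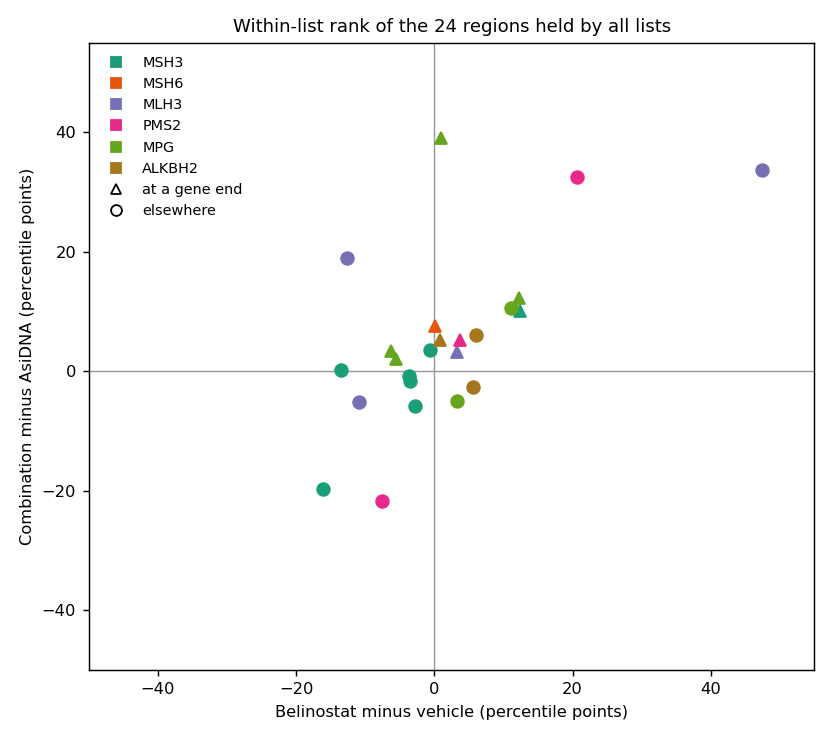
Difference in within-list percentile with belinostat, without AsiDNA (x axis, percentile points) and with it (y axis, percentile points), for the 24 regions held by all lists, coloured by gene, with triangles for regions at a gene end. The MLH3 site at 47.4 and 33.6 and the PMS2 upstream site at 20.7 and 32.5 lie at the upper right. The MSH3 site at -16.1 and -19.8 lies at the lower left. The highest point on the y axis is the last MPG start region, at 0.931 and 39.1.

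Over the 24 regions held by all lists, 11 ranked higher with belinostat on both backgrounds and 6 lower, against 40.9% and 32.0% of all such regions. Width was greater with belinostat on both backgrounds in 4 and smaller in 6, against 26.9% and 34.0%. The median log2 width ratio was 0.10 for belinostat over vehicle and -0.13 for combination over AsiDNA, with all regions at 0.02 and -0.06. With AsiDNA, 6 ranked higher on both backgrounds and 10 lower, against 26.6% and 24.2%. The shares for belinostat were near the background. That for lower ranks with AsiDNA, 41.7%, has an interval of 24.5 to 61.2 that takes in the background.

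Of the 47 regions, 24 or 51.1% (37.2 to 64.7) were in all lists, against 51.4% of all regions. For the other 23 the median of the highest percentile in any list was 21.4, against 66.9 for the 24. That highest value was taken over fewer lists for the 23, and the same split was not computed over all regions. None was in both belinostat lists only, against 6.09% of all regions, and none in neither AsiDNA list only, against 0.890%. A region of MLH3 at 4.15 kb from the start, chr14:75047066-75047313, was in neither belinostat list, at 33.5 in vehicle and 45.5 in AsiDNA, a pattern of 5.04% of regions. Another of MLH3 at 25.3 kb, chr14:75025794-75026173, was in both AsiDNA lists only, at 38.1 and 7.25, a pattern of 1.23%. In the single drugs only there were 2 regions, and in vehicle and combination only 2 regions, each 4.26% (1.17 to 14.2), against 1.39% and 0.737% of all regions.

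The most frequent pattern after presence in all lists was AsiDNA alone, with 8 regions or 17.0% (8.89 to 30.1) against 6.78% of all regions. All 8 were inside genes, 5 in MSH3 and 3 in MLH3, and 5 of them lie from 92.8 to 128 kb into MSH3. They ranked between 2.63 and 26.6 with a median of 11.3, beside a median of 13.7 for all regions of this pattern. With a −log10 q of at least 5 asked of every peak, 4 of 40 regions had this pattern, and the share of all regions was not computed at that cut. Belinostat alone held 4 regions, combination alone 2 and vehicle alone none, against 6.72%, 4.39% and 4.74%. Of regions missing from 1 list, 2 were missing from vehicle, 1 from belinostat and none from AsiDNA or combination, against 3.66%, 2.63%, 2.09% and 2.25%. The 2 missing from vehicle are the far end of ALKBH2, at 30.6 in belinostat, 34.9 in AsiDNA and 40.1 in combination, and an MSH3 site at 213 kb, at 66.4, 6.71 and 53.3, which was named after its values were seen.

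Counted by pairs of lists, belinostat gained 8 regions over vehicle and lost 4, against 17.9% and 13.1% of all regions. Over AsiDNA, the combination gained 4 and lost 11, against 13.3% and 15.5%. AsiDNA gained 13 over vehicle and lost 2, against 13.1% and 8.46%. Over belinostat, the combination gained 6 and lost 6, against 8.99% and 11.2%. These comparisons share lists and the weak AsiDNA peaks of MSH3 and MLH3 enter several of them. In the windows of the 7 genes the lists held 28 peaks in vehicle, 33 in belinostat, 40 in AsiDNA and 34 in combination, which covered 13962, 16039, 17803 and 14771 bp.

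Per gene, the number of regions did not follow length. MPG, 8.84 kb long, had 9 regions, more than 99.0% of 1632 genes of similar length, and MLH3, 37.7 kb long, had 13, more than 97.6% of 2019. MSH3 had 17 against a median of 16, PMS2 had 3 against 5, and ALKBH2 had 4 against 3. Some regions in the flanks lie within neighbouring genes, as at AIMP2, EIF2B2, UNG, RHBDF1 and NPRL3.

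**Figure D5:**
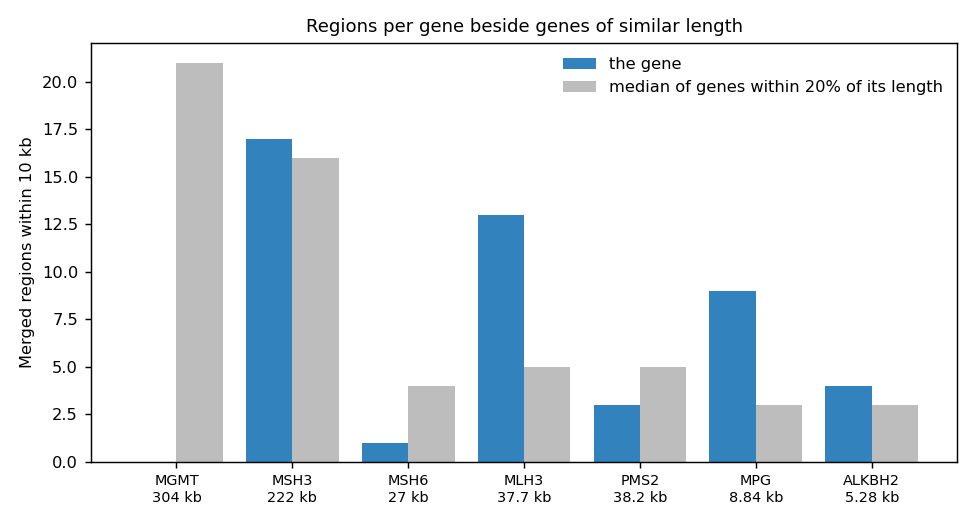
Merged regions within 10 kb of each gene (y axis, number of regions), in blue for the gene and in grey for the median of protein-coding genes within 20% of its length. MGMT has 0 beside a median of 21, MSH6 has 1 beside 4, and MLH3 and MPG have 13 and 9 beside 5 and 3.

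Among 30 other genes of mismatch repair and of direct reversal or base excision, 28 had a peak at a gene end in all lists, against 64.1% of protein-coding genes. In mismatch repair the exception among 19 was MSH4, a meiotic relative of MSH6, with a start peak in vehicle only, 266 bp wide and at percentile 5.46. Among 11 of direct reversal and base excision the exception was NEIL1, a glycosylase for oxidised bases, with none in any list. PMS1, EXO1, PCNA, LIG1, ALKBH1, ALKBH3, UNG and OGG1 were among the 28.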

How the data were processed

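NicE-seq peak lists of U87 cells were used as deposited, 1 list for the 4 libraries of each treatment group named in the labels. The submitters' processing notes name hg38, MACS2, deepTools, Bowtie2, Picard, SAMtools and Trim Galore 0.5.0; how they were run, and how libraries were combined, is not given in the sources used here. Each deposited peak carries the authors' fold enrichment, a ratio, and a −log10 q-value. The lists hold no counts, so depth is unknown. Peaks of the autosomes and X were ranked by fold within each list, and merged into regions at 1 bp of overlap. Genes came from a RefSeq table of GRCh38.p14 without exons, so peaks were not placed in exons or introns; strand came from the promoter table. Named were the regions at gene ends, those of 4 presence patterns across backgrounds, the 2 highest ranked other shared regions per gene, pathway genes not in all lists, and the 5 genes most like MGMT. The genes, lists and rules were chosen with earlier results of these data known. Alternatives were a −log10 q of 5, lists of equal length, 50% overlap, flanks of 0 and 50 kb, windows of 500 and 2000 bp and a margin between present and absent. Lists were cut to equal length by dropping the peaks of lowest fold. Merging was tested on simulated data. Software was pandas 2.3.3 and numpy 2.4.6 under Python 3.11.15, with figures by matplotlib 3.10.9.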

Additional observations from a re-analysis of the deposited data

Results flagged for a closer look

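Some values went in opposite directions with belinostat in the cells without and with AsiDNA. With 1 list per group these differences were not tested. The regions gained minus those lost with belinostat were 4 without AsiDNA and -7 with it, and the median log2 width ratio of the shared regions was 0.10 and -0.13. In percentile points, the MLH3 region at 26.0 kb differed by -12.6 without AsiDNA and 19.0 with it, the widest split. The MSH3 region at 127 kb differed by -13.5 and 0.126, and the region past its far end by -0.574 and 3.52. At MPG the upstream region within RHBDF1 differed by 3.35 and -5.00, and the first and middle start regions by -6.32 and 3.36 and by -5.61 and 2.01. The region at the UNG start, upstream of ALKBH2, differed by 5.57 and -2.63.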

How the results depend on the processing

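With 1 list per group, no replicate could be left out. No paired analysis was possible because each group has 1 list. MGMT had 0 regions under every alternative run, an outcome fixed in advance. No alternative added peaks, and the nearest peak, 193 kb away, lay outside the flank of 50 kb. Of 92 values recomputed, 78 were labelled the same, those of MGMT among them, 14 moved and 0 reversed. For percentile differences the label checked only the sign, for median widths an interval around the main value, and for counts the ratio. A count could not reverse. The start differences of MSH6, MPG and ALKBH2, which changed sign in lists of equal length, were not among the 92. The causes were not tested beyond what each alternative's construction shows. A flank of 50 kb took in 83 regions, 42 of them in all lists, where 10 kb gave 47 and 24, with 1 region in both belinostat lists only and 2 in neither. A −log10 q of at least 5 gave 1 region in both belinostat lists only, 0 in both AsiDNA lists only and 1 in neither AsiDNA list only; lists of equal length also gave 1 in neither AsiDNA list only, and the margin gave 0 in both AsiDNA lists only. Of the results added after the data were seen, regions in AsiDNA and not in vehicle went from 13 to 6 at a −log10 q of 5, and those in AsiDNA alone from 8 to 4. Regions in belinostat and not in vehicle went from 8 to 5 with no flank and 15 with 50 kb. The starts ranked higher with belinostat on both backgrounds went from 6 to 2 in lists of equal length, where vehicle stayed whole and ranks in the other lists could not rise. Unknown depth limits every absence: no peak means that the caller listed none.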

Other observations

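Of the 130 gaps of at least 1 Mb between neighbouring regions, 4 held a promoter with as many CG as that of MGMT. Besides MGMT these were the promoters of AUTS2, CNTN4 and SORCS1, which have roles in neuronal development or sorting. They were found after the gap around MGMT was seen.

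Regions within 10 kb of any protein-coding gene, 112527 in number, gave a closer background than all regions. Of these 54.5% were in all lists and 6.20% in AsiDNA alone, beside 51.1% and 17.0% at the 7 genes. At a −log10 q of at least 5, 4 of 40 regions at the 7 genes were in AsiDNA alone, with no background computed at that cut.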
